A study of Mus musculus with 26 samples.

Results

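The Bcl-2 family genes described here are 10 symbols of the expression table, which holds 46517: the survival genes Bcl2, Bcl2l1 and Mcl1, the BH3-only genes Bcl2l11, Bbc3, Pmaip1, Bid and Bad, and the effectors Bax and Bak1. They were chosen by symbol and followed through all 26 RNA-seq libraries of mouse thymocytes. The libraries came from 3 lines of TCR transgenic (TCRtg) mice, each carrying an MHC-I-restricted TCR: TG6tg of low self-reactivity on an H2b/d background of C57/BL6 crossed to B6.C-H2d/bByJ and with intact Rag genes, F5tg of intermediate self-reactivity on C57/BL6 with Rag1KO, and OT-1tg of high self-reactivity on C57/BL6 with Rag2KO. Lines therefore differ in TCR, MHC haplotype and Rag genotype at once, and these cannot be told apart. Thymocytes were sorted at an early stage of positive selection (CD4+CD8+CXCR4+CCR7-), at a late stage (CD4+CD8+CXCR4-CCR7+) and as mature CD8SP cells (CD4-CD8+CXCR4-CCR7+). Each of the 9 groups has 3 libraries, except TG6 late with 2, and the labels give no age for the mice.

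The Bcl-2 family sets the threshold at which mitochondria release cytochrome c and a cell enters apoptosis. Survival proteins hold the effectors Bax and Bak1 in check, BH3-only proteins bind the survival proteins or the effectors after stress, growth factor loss or TCR signals, and the effectors form the pores. In the thymus, preselection CD4+CD8+ cells are known to depend on Bcl2l1 (Bcl-xL), mature T cells on Bcl2 and the IL-7 receptor, all stages on Mcl1, and deletion of strongly self-reactive cells on Bcl2l11 (Bim) with help from Bbc3 (Puma).

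The windows before the start sites of Bcl2, Bcl2l1 and Bcl2l11 are shown because the first pair ran in opposite directions between stages and Bcl2l11 differed between lines at the late stage. Each holds 250 bases before a RefSeq start site on GRCm38.p6, written 5′ to 3′ on the strand of the gene, and the capitals mark matches on either strand to the motifs searched. Among the motifs searched were the GC box (GGGCGG), a Foxo site (GTAAACA), a STAT site (TTCNNNGAA) and an E-box (CANNTG), of which the E-box matches most loosely. Each window is that of the most upstream start site of its gene in the table.
Bcl2, chr1:106714291-106714540, minus strand: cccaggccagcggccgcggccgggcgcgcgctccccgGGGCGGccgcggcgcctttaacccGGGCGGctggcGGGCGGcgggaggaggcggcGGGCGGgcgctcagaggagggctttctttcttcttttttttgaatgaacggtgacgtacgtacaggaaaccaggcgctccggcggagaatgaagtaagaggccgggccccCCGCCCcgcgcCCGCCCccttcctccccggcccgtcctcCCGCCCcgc
Bcl2l1, chr2:152831729-152831978, minus strand: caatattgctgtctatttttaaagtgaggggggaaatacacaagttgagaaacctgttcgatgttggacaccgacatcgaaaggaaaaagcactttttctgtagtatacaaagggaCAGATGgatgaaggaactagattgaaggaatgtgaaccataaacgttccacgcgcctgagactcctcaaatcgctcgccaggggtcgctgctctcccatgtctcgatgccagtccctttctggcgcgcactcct
Bcl2l11, chr2:128125788-128126037, plus strand: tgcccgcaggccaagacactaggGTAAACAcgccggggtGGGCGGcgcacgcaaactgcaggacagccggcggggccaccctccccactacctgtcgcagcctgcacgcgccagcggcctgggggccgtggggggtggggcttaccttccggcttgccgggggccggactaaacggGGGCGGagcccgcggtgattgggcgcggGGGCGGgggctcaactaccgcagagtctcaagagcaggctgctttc

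The Bcl2 window held 7 GC boxes and was 74.8% G and C. The Bcl2l1 window held no GC box and 1 E-box and was 47.6% G and C. The Bcl2l11 window was close to that of Bcl2 in composition at 72.0%, with 3 GC boxes, and it also held 1 Foxo site. The window of the other Bcl2l11 start site held 2 GC boxes and no Foxo site, and those of the other 2 Bcl2l1 start sites held no GC box and 1 E-box each, 1 of them overlapping a Bcl2l1 exon. Among 32851 windows of the same length from the same table, 32.7% held a GC box, 66.2% an E-box, 7.02% the STAT site and 3.17% the Foxo site. These matches describe the letters of the windows and say nothing of binding. In GENCODE vM21, the Bcl2 gene lies at chr1:106538178-106714274, Bcl2l1 at chr2:152780668-152831728 and Bcl2l11 at chr2:128126038-128162547, and none of the printed windows overlaps an annotated exon.

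Values are the normalized counts of the authors. Differences are given as log2 fold changes of log2(value + 1) with the standard error (SE), and a gene was called at an adjusted p under 0.05 by limma with Benjamini-Hochberg adjustment over 16372 genes. Library totals lay between 16134786 and 18944173. Of the stage markers, Ccr7 lay at 112 to 863 in early libraries and at 2698 or more in all later ones, and Cd4 at 62.8 to 461 in mature libraries against 1455 or more in the others. Pooled over lines, Cxcr4 did not separate the stages, at 1425 to 5527 in early, 350.1 to 2561 in late and 1219 to 4031 in mature libraries. Late and mature cells were both sorted as CXCR4-. Within TG6, early libraries (4598 to 5527) lay above late ones (1024 to 1133), as they did within F5 (2638 to 4185 against 1139 to 2561). Within OT-1 they overlapped (1425 to 2898 against 350.1 to 1432). The symbols of the disrupted genes still carried values, with Rag1 at 10835 to 16266 in F5 early and Rag2 at 176 to 291 in OT-1 early libraries, so that gene-level values do not check these genotypes. Of markers of other cells, Ncr1 was at 0 in every library, Foxn1 at no more than 0.979 and Cd14 at no more than 2.06, but others carried values, with Cd79b at 59.7 to 241, Itgam at 22.8 to 276 and Hba-a2 at 9.03 to 459. Summed over each list, the library levels were 108 to 319 for 5 B cell genes, 69.0 to 312 for 8 myeloid and dendritic cell genes, 40.0 to 91.0 for 6 thymic epithelial genes, 0 to 18.1 for 3 NK cell genes and 31.5 to 1270.1 for 5 erythroid genes, against 64771 to 133898 for 8 T lineage genes. The erythroid sum reached its highest values in OT-1, at 324 to 1270.1 in early libraries against 189 to 350.1 in TG6 early ones. The B cell sum of early libraries was 114 to 137 in OT-1, 207 to 319 in TG6 and 228 to 284 in F5, and the myeloid and dendritic sum was lower late than early in each line (224 to 312 early and 96.9 to 120.2 late in TG6). The part of other cells in the results was not tested. In TG6 mature, F5 late and F5 mature cells, 1 library each stood apart in the sum of 10 cell division genes. That sum was 62301 in TG6 mature replicate 3 against 15583 and 17083 in the other TG6 mature libraries. It was 7497 in F5 late replicate 2 against 445 and 442, and 49742 in F5 mature replicate 2 against 17178 and 27794. Genes of preselection cells moved with that sum. Rag1 was 5265 in TG6 mature replicate 3 against 696 and 619.9, with Cd4 at 461 against 129 and 77.1. Under the Rag1 symbol, F5 late replicate 2 had 1658 against 62.3 and 109, and F5 mature replicate 2 had 2698 against 704 and 1896. Without these 3 libraries, 47 of the 50 called differences below kept their call.

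**Figure D1:**
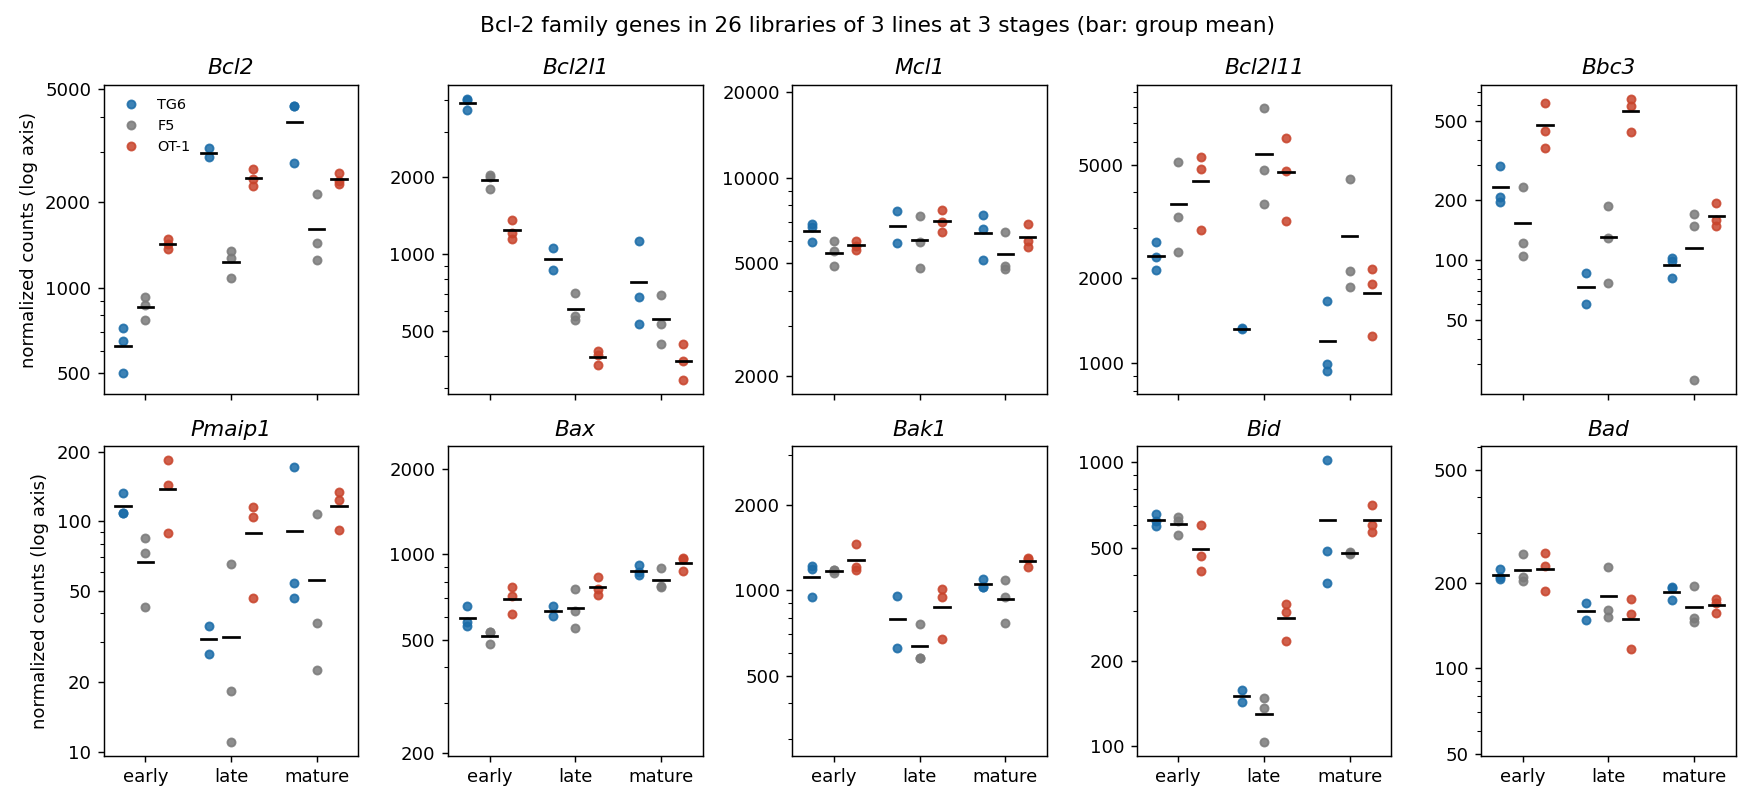
Normalized counts (log axis) of the 10 genes in each of 26 libraries, by stage on the x axis and by line in colour, with a bar at the group mean. Bcl2 and Bcl2l1 run in opposite directions from early to late in each line, OT-1 early and late libraries hold the 6 highest Bbc3 values, Bid dips at the late stage, and Mcl1 stays within 4773 to 7688.

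Bcl2 rose and Bcl2l1 fell from early to late positive selection in all 3 lines, and the lines were ordered by self-reactivity at the early stage. OT-1 thymocytes began with the most Bcl2 and the least Bcl2l1, TG6 thymocytes with the reverse, and F5 lay between. The Bcl2 level was then raised 4.82-fold in TG6, 1.44-fold in F5 and 1.71-fold in OT-1, so that by group mean TG6 passed from the lowest to the highest of the 3 lines. Sorting markers of the early libraries followed the same order of lines. Ccr7 was 112 to 199 in TG6, 139.8 to 270 in F5 and 648 to 863 in OT-1, Cd4 was 21209 to 22731, 12506 to 14604 and 7980.0 to 8114, and Rag1 was 51114 to 58364 in TG6 against 4303 to 6987 in OT-1, and the part of these markers in the early differences was not tested. As these are bulk samples, fewer cells of a type and less RNA per cell cannot be told apart in this or any later result.

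Early Bcl2 was 724, 651 and 500.0 normalized counts in TG6, 870.4, 924 and 771 in F5, and 1483, 1429.8 and 1368 in OT-1. The 3 lines did not overlap. OT-1 exceeded TG6 by 1.21 on the log2 scale (SE 0.18, adjusted p = 2.47e-05, n = 3 and 3, limma) and F5 by 0.74 (SE 0.18, adjusted p = 0.0065, limma), while F5 against TG6 gave 0.46 (adjusted p = 0.13, limma). The last of these was called without the 3 libraries of high cell division signal (adjusted p = 0.043, limma), although none of them is an early library.

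At the late stage, Bcl2 was 3090.1 and 2872 in TG6, 1275, 1081 and 1348 in F5, and 2409, 2622 and 2282 in OT-1. F5 now had the lowest level, below every library of the other lines. F5 was lower than TG6 by a log2 fold change of -1.28 (SE 0.20, adjusted p = 1.59e-04, limma), and OT-1 was higher than F5 by 0.98 (adjusted p = 2.61e-04, limma). OT-1 against TG6 was -0.29 and was not called. The rise from early to late was 2.27 in TG6 (adjusted p = 2.04e-08), 0.53 in F5 (adjusted p = 0.030) and 0.77 in OT-1 (adjusted p = 0.0024), all by limma. The F5 rise lost its call without F5 early replicate 1 (adjusted p = 0.056), F5 early replicate 3 (0.11), F5 late replicate 1 (0.075) or F5 late replicate 3 (0.11), and with scaling by totals (0.052). The OT-1 rise was smaller than the TG6 rise, with an interaction of -1.50 on the log2 scale (SE 0.26, 95% interval -2.05 to -0.95, adjusted p = 0.0028, limma). That was the only one of the 10 genes called for that interaction, for which 2.04% of all genes tested were called.

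In mature CD8SP cells, Bcl2 was 4362, 4346 and 2755 in TG6, 1254, 1432 and 2141 in F5, and 2368, 2324 and 2539 in OT-1. The low TG6 library is the one with the high cell division, Rag1 and Cd4 values, and their part in the level was not tested. OT-1 was lower than TG6 by a log2 fold change of -0.63 (SE 0.18, adjusted p = 0.025, limma), which became -0.85 without the 3 libraries of high cell division signal. The call was lost without TG6 mature replicate 1 (adjusted p = 0.15), TG6 mature replicate 2 (0.15), OT-1 mature replicate 1 (0.075) or OT-1 mature replicate 2 (0.086), and when only these 2 groups were fitted (0.195). F5 was lower than TG6 by -1.25 (adjusted p = 3.67e-05, limma), a call lost when only those 2 groups were fitted (0.084). OT-1 exceeded F5 by 0.62 (adjusted p = 0.015, limma), which was lost without F5 mature replicate 1 (0.090), with scaling by totals (0.067) and when only those 2 groups were fitted (0.083). From late to mature, Bcl2 was not called in any line. In TG6 it was called with the replicate number as a block, which reads the number as the mouse although the labels do not state this outright (0.51, adjusted p = 0.027), and without TG6 mature replicate 3 (0.55, adjusted p = 0.044).

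Bcl2l1, the survival gene of preselection thymocytes, spanned the widest range of the 10 genes, with the highest group mean 10.1 times the lowest. Early libraries held 4012, 3663 and 4041 in TG6, 1794, 2012 and 2049 in F5, and 1207, 1152 and 1367 in OT-1. No library of one line overlapped another line. OT-1 was lower than TG6 by a log2 fold change of -1.65 (SE 0.20, adjusted p = 1.72e-06, limma), F5 lower than TG6 by -1.0 (adjusted p = 0.0025) and OT-1 lower than F5 by -0.65 (adjusted p = 0.031). The last call was lost without F5 early replicate 2 (0.097), F5 early replicate 3 (0.11), OT-1 early replicate 1 (0.091) or OT-1 early replicate 2 (0.12).

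The fall of Bcl2l1 from early to late was large in each line: -2.03 in TG6 (SE 0.22, adjusted p = 4.32e-07), -1.68 in F5 (adjusted p = 1.84e-06) and -1.64 in OT-1 (adjusted p = 4.18e-06), all by limma. Late libraries held 1054 and 865 in TG6, 576, 707 and 553 in F5, and 403, 369 and 421 in OT-1. The order of the lines was thus that of the early stage, and the late TG6 level lay near the early OT-1 level. OT-1 was lower than TG6 by -1.26 (adjusted p = 3.39e-04, limma), and lower than F5 by -0.61 (adjusted p = 0.027), a call lost without F5 late replicate 2 (0.12), OT-1 late replicate 1 (0.062) or OT-1 late replicate 2 (0.088). F5 against TG6 gave -0.65 (adjusted p = 0.10) and was called with the replicate number as a block (-0.72, adjusted p = 0.047) and without the 3 libraries of high cell division signal (-0.76, adjusted p = 0.0030).

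Mature libraries held 680.0, 534 and 1129.5 Bcl2l1 counts in TG6, 447, 694 and 535 in F5, and 385, 323 and 446 in OT-1. TG6 mature replicate 3, of high cell division, Rag1 and Cd4 values, was again the library apart, and their part in its Bcl2l1 level was not tested. OT-1 was lower than TG6 by -0.96 (SE 0.20, adjusted p = 0.0029, limma). This was -0.66 (adjusted p = 0.0013) without the 3 libraries of high cell division signal and was not called when only the 2 groups were fitted (0.19). OT-1 against F5 was -0.52 (adjusted p = 0.058) and was called with scaling by totals (-0.67, adjusted p = 0.018), with quantile normalization (-0.66, adjusted p = 0.013), with the replicate number as a block (adjusted p = 0.048), without F5 mature replicate 1 (-0.67, adjusted p = 0.033) or without OT-1 mature replicate 3 (-0.64, adjusted p = 0.046). F5 against TG6 was -0.44 (adjusted p = 0.24), and -0.67 (adjusted p = 0.040) without TG6 mature replicate 2. With 1 library left out its adjusted p reached 0.72 at the highest. From late to mature, Bcl2l1 gave -0.36 in TG6 (adjusted p = 0.26), -0.15 in F5 (adjusted p = 0.68) and -0.06 in OT-1 (adjusted p = 0.86). The TG6 change was called with the replicate number as a block (-0.53, adjusted p = 0.025) and without TG6 mature replicate 3 (-0.66, adjusted p = 0.014).

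**Figure D2:**
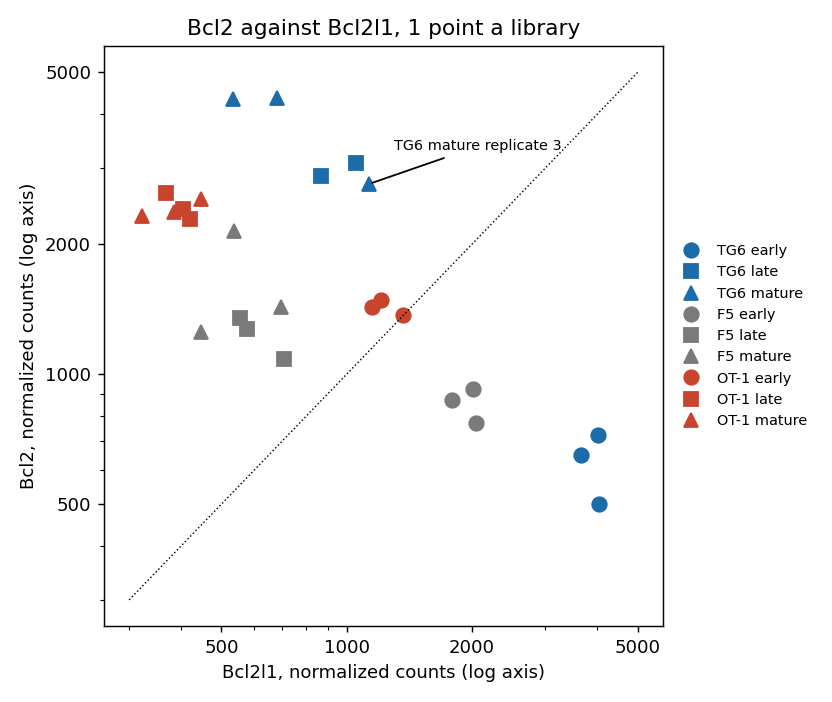
Bcl2 (y axis) against Bcl2l1 (x axis) in normalized counts on log axes, with 1 point for each of 26 libraries, colour for the line, marker for the stage and a dotted line of equal counts. Early TG6 and F5 libraries lie below the line and early OT-1 libraries on or just above it, while every later library lies above it, with TG6 mature replicate 3 labelled.

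The log2 ratio of Bcl2 to Bcl2l1 counts within a library sums up this exchange. It was -2.66 ± 0.31 (SD, n = 3) in TG6 early, -1.19 ± 0.19 (n = 3) in F5 early and 0.20 ± 0.18 (n = 3) in OT-1 early libraries. At the late stage it was 1.64 ± 0.13 (n = 2) in TG6, 1.01 ± 0.35 (n = 3) in F5 and 2.61 ± 0.20 (n = 3) in OT-1. In mature libraries it was 2.33 ± 0.92 (n = 3) in TG6, 1.51 ± 0.48 (n = 3) in F5 and 2.66 ± 0.17 (n = 3) in OT-1. The ratio compares counts, which are not scaled for the different lengths of the transcripts, so its 0 marks equal counts and not equal molecules. Per kb of exon the order turned in 2 groups: OT-1 early libraries held 156 ± 6.30 (SD, n = 3) normalized counts per kb of Bcl2 against 320 ± 28.7 (n = 3) of Bcl2l1, and F5 late libraries 135 ± 15.0 (n = 3) against 157 ± 21.4 (n = 3). On that scale Bcl2 was below Bcl2l1 in the early group of each line.

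Mcl1, needed for survival at all thymic stages, differed little. Its libraries ranged from 4773 to 7688 and its highest group mean was 1.31 times its lowest. In none of the 17 comparisons was it called. OT-1 against TG6 was -0.17 at the early stage (95% interval -0.49 to 0.15), 0.07 at the late stage (-0.29 to 0.42) and -0.03 in mature cells (-0.35 to 0.28). Per kb of exon, Mcl1 had the highest group means of the 10 genes at 1571 to 2057 normalized counts per kb, against 99.0 to 1005 for Bcl2l1 and 68.3 to 417 for Bcl2. The 1 alternative that called it was OT-1 early to late with only those 2 groups fitted (0.28, adjusted p = 0.040, limma).

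Bcl2l11 and Bbc3, the BH3-only genes most tied to deletion, had higher levels in late OT-1 than late TG6 thymocytes. Bcl2l11 also stood higher in F5 than in TG6 at that stage, whereas Bbc3 did not pass that test. Late Bcl2l11 was 1316 and 1327 in TG6, 7916, 3646 and 4773 in F5, and 4762, 6202 and 3168 in OT-1. Every F5 and OT-1 library exceeded both TG6 libraries, and F5 and OT-1 overlapped. The difference from TG6 was 1.78 for OT-1 (SE 0.39, adjusted p = 0.0031, limma) and 1.97 for F5 (SE 0.39, adjusted p = 0.0028, limma), the second lost when only those 2 groups were fitted (0.071).

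At the early stage, Bcl2l11 was 2362, 2128 and 2668 in TG6, 5114, 2469 and 3281 in F5, and 4825, 5326 and 2945 in OT-1. OT-1 lay above TG6 in every library, by 0.83 (adjusted p = 0.082, limma), and this was called with the replicate number as a block (adjusted p = 0.037) and without OT-1 early replicate 3 (1.09, adjusted p = 0.041). In mature cells it was 998, 938 and 1655 in TG6, 4467, 1849 and 2118 in F5, and 1906, 2152 and 1242 in OT-1. F5 exceeded TG6 by 1.17 (adjusted p = 0.049, limma), a call lost without TG6 mature replicate 1 (0.15), TG6 mature replicate 2 (0.16), F5 mature replicate 1 (0.77, adjusted p = 0.27) or F5 mature replicate 3 (0.062), and when only those 2 groups were fitted (0.29). OT-1 against TG6 in mature cells was 0.57 and was not called.

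From late to mature, Bcl2l11 fell in OT-1 (log2 fold change -1.4, SE 0.35, adjusted p = 0.0060, limma) and in F5 (-0.99, adjusted p = 0.049). The F5 fall lost its call without F5 late replicate 1 (0.22), F5 late replicate 3 (0.088), F5 mature replicate 2 (0.23) or F5 mature replicate 3 (0.15), and without the 3 libraries of high cell division signal (0.090). From early to late the change was -0.85 in TG6 (adjusted p = 0.13), 0.58 in F5 (adjusted p = 0.25) and 0.10 in OT-1, none of them called. The TG6 change was called when only those 2 groups were fitted (adjusted p = 0.0029). The OT-1 change did not differ from the TG6 change past the threshold, at 0.95 from early to late (95% interval -0.15 to 2.04, adjusted p = 0.53, limma) and -1.21 from late to mature (-2.30 to -0.11, adjusted p = 0.43, limma), and F5 was not tested against TG6.

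In F5 and OT-1, the order of the libraries in Bcl2l11 was kept over the stages by replicate number. F5 replicate 1 was the highest and F5 replicate 2 the lowest F5 library at each of the 3 stages, and OT-1 replicate 2 was the highest and OT-1 replicate 3 the lowest OT-1 library at each stage. In TG6, replicate 1 exceeded replicate 2 at the early and mature stages but not at the late stage. Ccr7 had the same highest and lowest libraries in F5 and OT-1 late and mature cells, though not in TG6 mature cells, with 7609 in F5 late replicate 1 against 2698 in replicate 2, and 10976 in OT-1 late replicate 2 against 7279 in replicate 3, and its part in the Bcl2l11 levels was not tested. Bcl2l11 moved from early to late by 0.54 to 0.63 in the 3 F5 pairs of the same number and by -0.84 to -0.68 in the 2 TG6 pairs. With the replicate number as a block, both changes were called, at 0.58 (adjusted p = 2.35e-04) in F5 and -0.67 (adjusted p = 2.93e-04) in TG6. With that block the OT-1 change also differed from the TG6 change from early to late (0.78, adjusted p = 0.0077) and from late to mature (-1.04, adjusted p = 0.0017), and the TG6 fall from late to mature was called (-0.36, adjusted p = 0.030).

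**Figure D3:**
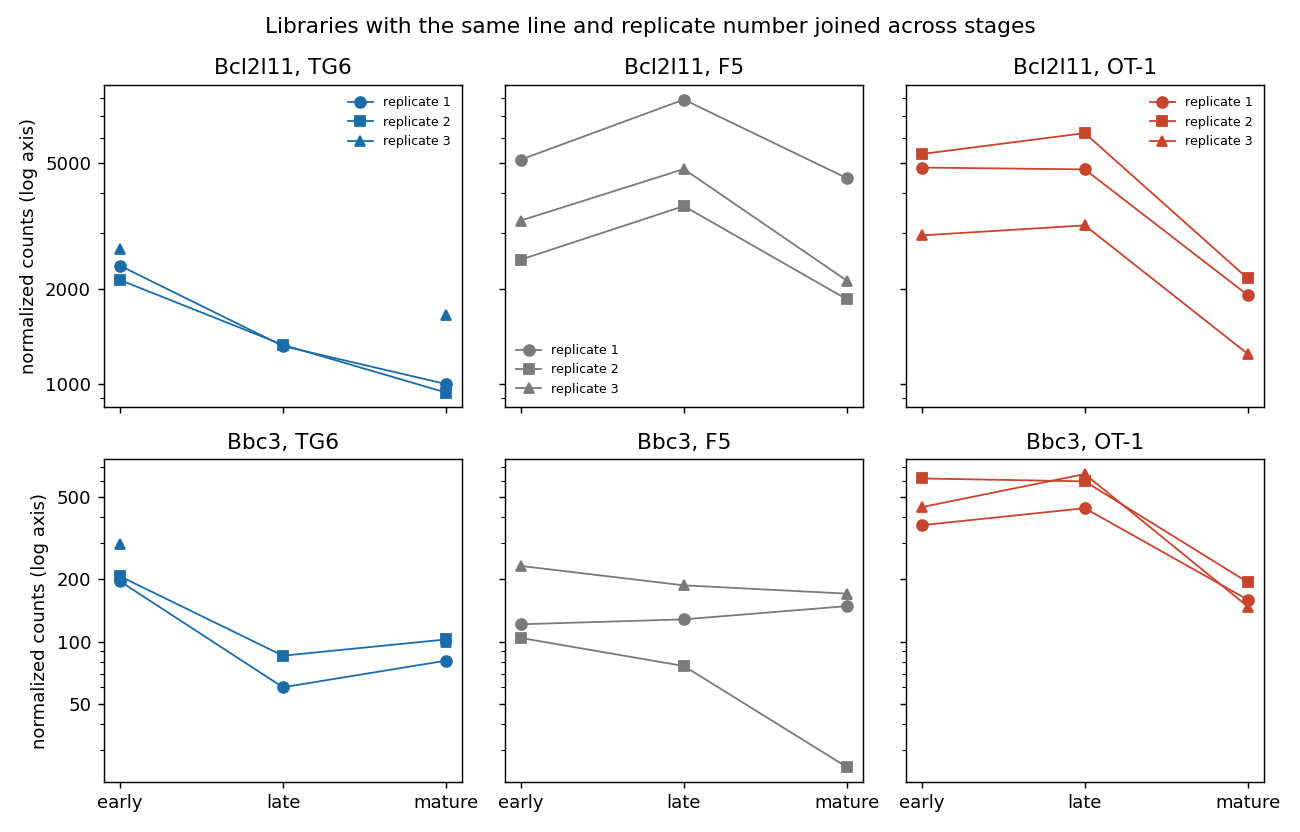
Bcl2l11 (upper row) and Bbc3 (lower row) in normalized counts on a log axis across the 3 stages, with libraries of the same line and replicate number joined and TG6 replicate 3 unjoined because it has no late library. The 3 F5 lines of Bcl2l11 run parallel, up and then down, whereas both joined TG6 lines of Bcl2l11 fall at each step.

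Bbc3 reached its highest values in OT-1. Early libraries held 365, 614 and 446 in OT-1, 196, 207 and 295 in TG6, and 121, 104 and 232 in F5. Late libraries held 441, 594 and 645 in OT-1, 60.1 and 85.5 in TG6, and 128, 76.2 and 187 in F5. OT-1 overlapped neither other line at either stage. At the late stage OT-1 was 7.62-fold higher than TG6 (log2 fold change 2.93, SE 0.54, adjusted p = 6.22e-04, limma) and 4.49-fold higher than F5 (2.17, SE 0.48, adjusted p = 0.0022, limma).

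At the early stage the OT-1 excess in Bbc3 over F5 was 1.69 (adjusted p = 0.023, limma), lost without F5 early replicate 1 (0.070), F5 early replicate 2 (0.11) or OT-1 early replicate 2 (0.11). The early excess over TG6 was 1.02 (adjusted p = 0.12), called when only those 2 groups were fitted (0.017) or without the 3 libraries of high cell division signal (0.0069). Mature cells showed 159, 194 and 148 in OT-1, 80.9, 102 and 99.0 in TG6, and 148, 24.8 and 170 in F5, with no pair of lines called. OT-1 lay above TG6 in every mature library, by 0.82 (adjusted p = 0.30, limma), and this was called without the 3 libraries of high cell division signal (0.86, adjusted p = 0.041). Between stages, Bbc3 fell from early to late in TG6 (-1.66, adjusted p = 0.027, limma) and from late to mature in OT-1 (-1.73, SE 0.48, adjusted p = 0.012, limma). The TG6 fall lost its call without TG6 early replicate 3 (0.090), TG6 late replicate 1 (0.19) or TG6 late replicate 2 (0.069). Set against TG6, the OT-1 change in Bbc3 was 1.91 on the log2 scale from early to late (adjusted p = 0.24) and -2.11 from late to mature (adjusted p = 0.22), and both were called with the replicate number as a block (1.80, adjusted p = 0.038, and -2.0, adjusted p = 0.026) and without the 3 libraries of high cell division signal (1.91, adjusted p = 0.0085, and -2.07, adjusted p = 0.0071).

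Pmaip1 (Noxa), a BH3-only partner of Mcl1, was the scarcest of the 10 genes at 11.3 to 50.8 normalized counts per kb in the group means. Late libraries held 35.2 and 26.5 in TG6, 65.4, 11.0 and 18.3 in F5, and 115, 105 and 46.6 in OT-1. OT-1 exceeded F5 by 1.75 (adjusted p = 0.033, limma) although the groups overlapped, and the call was lost without F5 late replicate 2 (0.18), F5 late replicate 3 (0.12), OT-1 late replicate 1 (0.13) or OT-1 late replicate 2 (0.11). It was also lost without the 3 libraries of high cell division signal (1.22, adjusted p = 0.087). From early to late it fell by 1.89 in TG6 (adjusted p = 0.036, limma), from 109, 108 and 133 at the early stage. Leaving out any 1 of the 5 TG6 libraries of that comparison ended the call, with adjusted p of 0.064 without early replicate 1, 0.064 without early replicate 2, 0.090 without early replicate 3, 0.10 without late replicate 1 and 0.20 without late replicate 2. The same change was -1.39 in F5 (adjusted p = 0.084), called with the replicate number as a block (adjusted p = 0.0030) and without F5 late replicate 1 (-2.09, adjusted p = 0.0097). In mature cells OT-1 against F5 gave 1.35 (adjusted p = 0.099), and 1.97 (adjusted p = 0.026) without F5 mature replicate 1.

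Bid, the BH3-only gene that links death receptors to mitochondria, dipped at the late stage in every line. TG6 libraries held 657, 619 and 594 early, 157 and 143 late, and 487, 376 and 1011 mature. F5 libraries held 618, 554 and 639 early, 137, 148 and 104 late, and 475, 479 and 480.4 mature. OT-1 libraries held 468, 412 and 599 early, 296, 234 and 315 late, and 601, 567 and 707 mature. In each line the late libraries lay below all early and all mature ones.

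The fall of Bid from early to late was -2.04 in TG6 (SE 0.26, adjusted p = 3.89e-06), -2.22 in F5 (adjusted p = 5.78e-07) and -0.80 in OT-1 (adjusted p = 0.015), all by limma. The OT-1 fall lost its call without OT-1 early replicate 3 (0.084) or OT-1 late replicate 2 (0.077). The rise from late to mature was 1.92 in TG6 (adjusted p = 2.03e-05), 1.89 in F5 (adjusted p = 6.51e-06) and 1.15 in OT-1 (adjusted p = 0.0012). Late OT-1 cells held more Bid than late F5 cells (1.12, adjusted p = 0.0013, limma) and late TG6 cells (0.89, adjusted p = 0.024, limma). The second call was lost without TG6 late replicate 1 (0.095), TG6 late replicate 2 (0.17), OT-1 late replicate 1 (0.071) or OT-1 late replicate 3 (0.072). The difference of the OT-1 from the TG6 fall, 1.25, was not called (adjusted p = 0.076), but was when only those 4 groups were fitted (0.013) or without the 3 libraries of high cell division signal (0.0024). Mature OT-1 and TG6 cells differed by 0.13, and by 0.54 (adjusted p = 0.023) without TG6 mature replicate 3.

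Between stages, cell division genes moved with Bid. The sum of the 10 division genes was 589 to 676 in late TG6, 442 to 7497 in late F5 and 2935 to 5120 in late OT-1 libraries, against 40649 to 84645 in early and 15583 to 75709 in mature libraries. The TG6 mature library of highest sum also had the highest Bid value of all 26. F5 late replicate 2 had 148 for Bid, close to the 137 of F5 late replicate 1, at a division sum of 7497 against 445. The F5 mature libraries had 475, 479 and 480.4 for Bid at sums of 17178, 49742 and 27794. The TG6 mature library was also the one of high Rag1 and Cd4 values. The part of cell division and of these markers in the Bid levels was not tested.

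**Figure D4:**
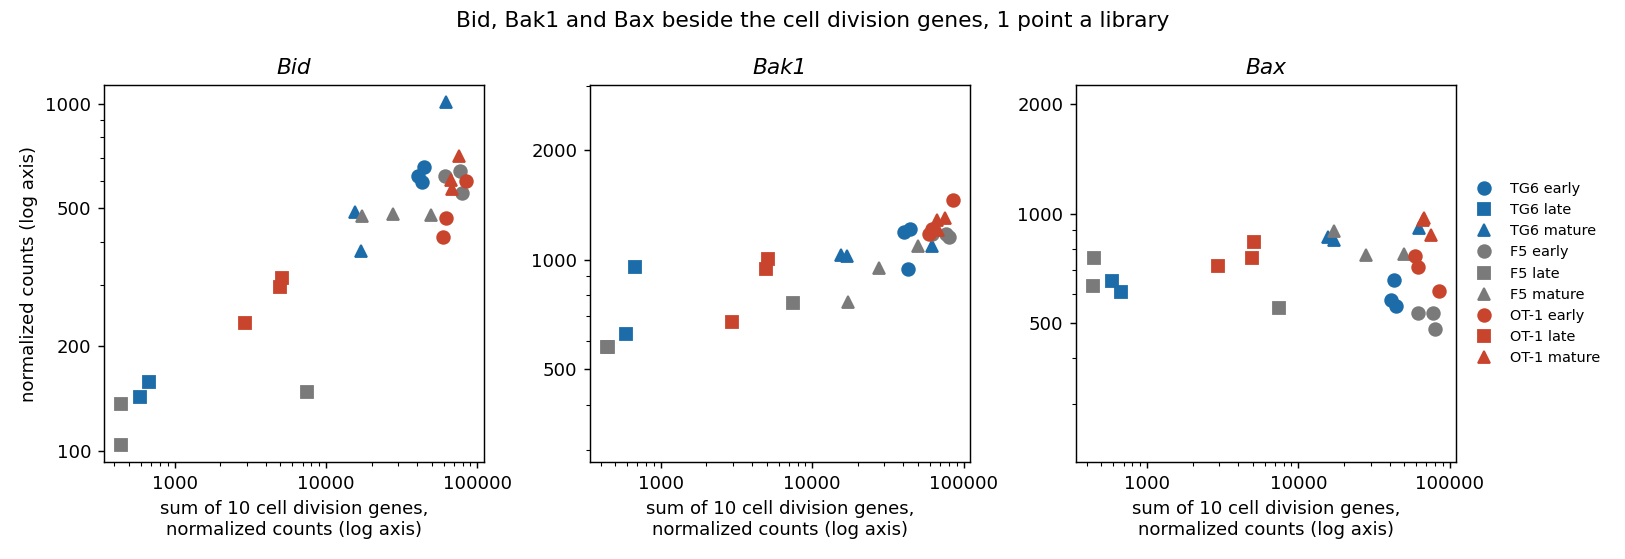
Bid, Bak1 and Bax (y axes, normalized counts, log axes) against the sum of 10 cell division genes (x axis, normalized counts, log axis), with 1 point a library, colour for the line and marker for the stage. Late libraries have the lowest sums and the lowest Bid values, while Bax does not follow the sum.

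Bad, a BH3-only protein inactivated by growth factor signals, was low and steady, from 117 to 255 over the libraries. Its 1 call was a fall from early to late in OT-1 of -0.59 (adjusted p = 0.016, limma), from 229, 187 and 255 to 155, 117 and 175. The groups did not overlap. The call was lost without OT-1 early replicate 3 (0.083) or OT-1 late replicate 2 (0.11). The same change was -0.42 in TG6 (adjusted p = 0.13), where the groups did not overlap either, and -0.32 in F5 (adjusted p = 0.19). The F5 value was -0.51 (adjusted p = 0.045) without F5 late replicate 2. OT-1 against TG6 was 0.06 at the early stage (95% interval -0.31 to 0.42), -0.11 at the late stage (-0.52 to 0.30) and -0.15 in mature cells (-0.52 to 0.21).

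The effector Bak1 fell from early to late in each line, and a rise of Bax was called in F5 alone. From late to mature, the group means of both rose in each line, and the rise of each gene was called in 2 of the 3 lines. The log2 ratio of Bax to Bak1 counts within a library was -0.90 ± 0.33 (SD, n = 3) in TG6, -1.18 ± 0.07 (n = 3) in F5 and -0.88 ± 0.33 (n = 3) in OT-1 early libraries, and -0.29 ± 0.51 (n = 2), 0.02 ± 0.44 (n = 3) and -0.17 ± 0.23 (n = 3) at the late stage. Counts not scaled for length thus lay closer together late than early, but per kb of exon the group means lay further apart late. Normalized counts per kb of Bax and Bak1 were 689 and 468 early and 728 and 331 late in TG6. They were 595 and 489 early and 745 and 267 late in F5, and 804 and 537 early and 886 and 367 late in OT-1. Bax was 557, 577 and 658 in TG6 early, 607 and 655 in TG6 late, and 862, 848 and 915 in TG6 mature libraries. F5 libraries held 532, 483 and 533 early, 757, 549 and 633 late, and 897, 776 and 767 mature. OT-1 libraries held 711, 765 and 614 early, 754, 718 and 833 late, and 962, 969.8 and 873 mature. In each line every mature library lay above every early and every late one.

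From late to mature, Bax rose by 0.47 in TG6 (adjusted p = 0.010, limma) and by 0.34 in F5 (adjusted p = 0.038), and gave 0.28 in OT-1 (adjusted p = 0.075, and 0.030 with the replicate number as a block). The TG6 rise was lost without TG6 late replicate 1 (0.11), and the F5 rise without F5 late replicate 2 (0.21), F5 late replicate 3 (0.098), F5 mature replicate 1 (0.15) or F5 mature replicate 2 (0.060), and without the 3 libraries of high cell division signal (0.19). From early to late, Bax rose in F5 by 0.31 (adjusted p = 0.046), a call lost without any 1 of F5 early replicates 1 (0.067), 2 (0.16) and 3 (0.072) or F5 late replicates 1 (0.24) and 3 (0.087). The rise was 0.19 without F5 late replicate 1. Between lines it was called for OT-1 over F5 at the early stage, at 0.43 (adjusted p = 0.015), and that call was lost without F5 early replicate 2 (0.077), OT-1 early replicate 1 (0.056) or OT-1 early replicate 2 (0.094). At the late stage OT-1 against F5 gave 0.26 (adjusted p = 0.11), and 0.38 (adjusted p = 0.020) without F5 late replicate 1.

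Bak1 was 1217, 1191 and 946 in TG6 early, 954 and 626 in TG6 late, and 1028, 1025 and 1095 in TG6 mature libraries. F5 libraries held 1175, 1153 and 1177 early, 576, 761 and 577 late, and 768, 1089 and 949 mature. OT-1 libraries held 1212, 1176 and 1459 early, 944, 673 and 1008 late, and 1287, 1209.7 and 1304 mature. Late F5 and OT-1 libraries lay below the early ones of their line, while TG6 late overlapped TG6 early.

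From early to late, Bak1 fell by 0.88 in F5 (SE 0.17, adjusted p = 3.49e-04, limma), by 0.57 in OT-1 (adjusted p = 0.014) and by 0.52 in TG6 (adjusted p = 0.042). The OT-1 fall was lost without OT-1 early replicate 3 (0.079) or OT-1 late replicate 2 (0.11), and the TG6 fall without TG6 early replicate 1 (0.12), TG6 early replicate 2 (0.11) or TG6 late replicate 2 (0.58). The TG6 value was -0.83 without TG6 late replicate 1 and -0.22 without TG6 late replicate 2. From late to mature, it rose by 0.55 in F5 (adjusted p = 0.021) and by 0.55 in OT-1 (adjusted p = 0.018), and gave 0.44 in TG6 (adjusted p = 0.095, and 0.040 with the replicate number as a block). Without TG6 late replicate 1 that value was 0.74 (adjusted p = 0.026). The F5 rise was lost without F5 late replicate 1 (0.073), F5 late replicate 3 (0.092), F5 mature replicate 2 (0.13) or F5 mature replicate 3 (0.057), and the OT-1 rise without OT-1 late replicate 2 (0.13), OT-1 mature replicate 1 (0.0505) or OT-1 mature replicate 3 (0.055). OT-1 against F5 was not called for Bak1 in late cells (0.45, adjusted p = 0.055) or mature cells (0.45, adjusted p = 0.053). It was called in late cells without F5 late replicate 2 (0.58, adjusted p = 0.026) or OT-1 late replicate 2 (0.62, adjusted p = 0.012), and in mature cells without F5 mature replicate 2 (0.57, adjusted p = 0.026). The highest Bak1 value, 1459, was in the library with the highest division sum, 84645, and the part of cell division in the Bak1 levels was not tested.

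Among the 50 calls, several rested on how the fit was made. Fitting only the groups of a comparison, which gives up the shared spread, ended 16 of them, with adjusted p of 0.055 to 0.29. Beside those named above, these were the rise of Bid from late to mature in TG6 (0.080), Bax in TG6 (0.087) and Bax and Bak1 in F5 over the same step (0.21 and 0.12), Bax in F5 (0.16) and Bak1 in TG6 (0.13) from early to late, Bak1 and Bad from early to late in OT-1 (0.055 and 0.076), Bcl2l11 from late to mature in F5 (0.21) and Pmaip1 of OT-1 against F5 (0.15). Without a filter on low values 7 calls were lost at 0.054 to 0.082, of Pmaip1 (2), Bcl2l11 (2), Bax (2) and Bak1 (1), and without the variance trend 4 at 0.053 to 0.076. Quantile normalization ended 3 (Bak1 early to late in TG6, and Bax and Bcl2l11 late to mature in F5), scaling by totals 3 (Bak1 early to late in TG6 and the 2 named for Bcl2), and a pseudocount of 0.1 ended 2, both of Bcl2l11 in F5.

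Over the 10 genes, OT-1 against TG6 gave 2 calls at the early stage, 4 at the late stage and 2 in mature cells, where 27.8%, 15.5% and 9.74% of all genes tested were called. The last share rests on 1595 genes, which became 4446 without TG6 mature replicate 3, 745 without replicate 1 and 734 without replicate 2, with 3, 1 and 1 members called. It was also 971 without OT-1 mature replicate 1 and 903 without OT-1 mature replicate 2. Leaving out 1 library moved the genes called by over 1.5 times in other comparisons too. OT-1 against TG6 late went from 2545 to 1270 without TG6 late replicate 1 and 1100 without replicate 2, F5 against TG6 late from 814 to 429 and 375, early to late TG6 from 4158 to 2755 and 2631, and late to mature TG6 from 3655 to 2117 and 1878. OT-1 against F5 gave 4, 5 and 1 calls at the 3 stages, where 12.7%, 24% and 23.3% of all genes were called. F5 against TG6 gave 1, 2 and 2 calls, where 6.46%, 4.97% and 6.64% were called. F5 against TG6 early went from 1058 to 696 without TG6 early replicate 2, 646 without TG6 early replicate 3, 694 without F5 early replicate 1 and 694 without F5 early replicate 2. OT-1 against F5 early went from 2077 to 1324 and 1320 without F5 early replicates 2 and 3 and to 1282 without OT-1 early replicate 2, and OT-1 against F5 mature from 3821 to 2281 without F5 mature replicate 3. The 3 line comparisons of a stage share libraries, so these counts are not independent of one another. Between stages, early to late gave 6 calls in TG6 (25.4% of all genes called), 5 in F5 (26.7%) and 5 in OT-1 (26.7%). Late to mature gave 2 calls in TG6 (22.3% of all genes called), 4 in F5 (20.5%) and 4 in OT-1 (24.4%). The interaction of OT-1 against TG6 from late to mature gave 0 calls by limma, with 1.17% of all genes called (192 genes, and 72 without TG6 late replicate 2 or 532 without TG6 mature replicate 3). The 334 genes of the early to late interaction became 111 without TG6 late replicate 2, 135 without TG6 late replicate 1, 182 without TG6 early replicate 3 and 171 to 218 without OT-1 early replicate 1 or 2 or OT-1 late replicate 1 or 2. In the late to mature interaction, unadjusted limma p-values were under 0.05 for 3 of the 10 genes (Bcl2l11, Bbc3 and Bid), and the block by replicate number gave 2 calls. The median log2 fold change of the 10 genes for OT-1 against TG6 was 0.20, 0.22 and 0.11 at the 3 stages, against medians within 0.01 of 0 for all genes tested. It pools survival and death genes that went opposite ways, with Bcl2 at 1.21 and Bcl2l1 at -1.65 at the early stage. Scaling by totals moved the median of all genes by -0.11, -0.13 and -0.09 in these comparisons.

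**Figure D5:**
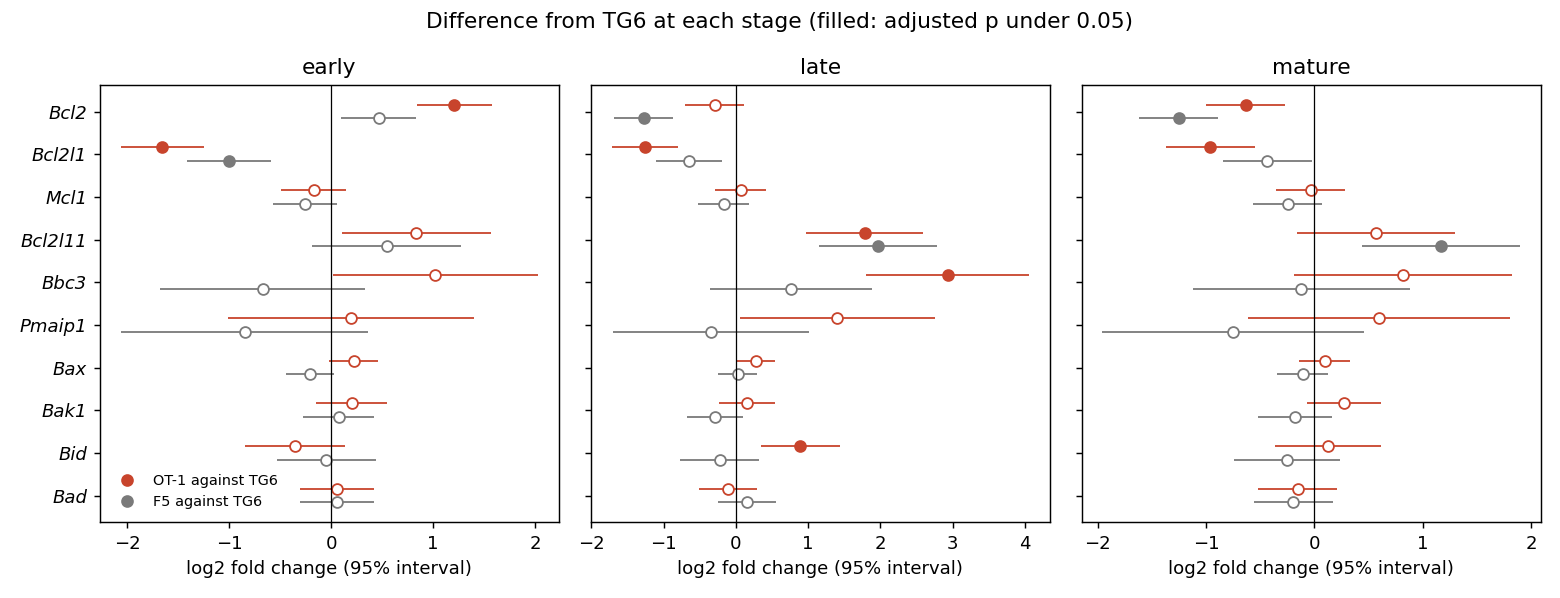
Log2 fold change against TG6 with its 95% interval (x axis) for the 10 genes (y axis) at each stage, for OT-1 and for F5, with filled points at an adjusted p under 0.05. Bcl2 of OT-1 passes from 1.21 at the early stage to -0.63 in mature cells, Bcl2l1 is negative at each stage, and Bbc3 peaks at 2.93 at the late stage.

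The other genes of the pathway were followed in 4 lists. Calls of single genes in these lists were not followed through the alternative fits and left-out libraries used for the 10 genes. Of 17 other Bcl-2 family genes, 13 passed the filter on low values, and OT-1 against TG6 called 3 of them at the early stage (2 higher, 1 lower), 0 at the late stage by limma (1 at an unadjusted p under 0.05) and 2 in mature cells (1 higher, 1 lower), where 27.8%, 15.5% and 9.74% of all genes were called. The largest difference was in Bmf, a BH3-only gene released from the cytoskeleton when cells detach, with early means of 328 in OT-1 and 2797 in TG6 (-3.03, SE 0.35, adjusted p = 1.09e-06) and mature means of 376 and 2015 (-2.37, adjusted p = 9.23e-05). Its OT-1 level rose to 1206 at the late stage (1.87, adjusted p = 3.89e-04) and fell again from late to mature (-1.71, adjusted p = 0.0012). Early libraries of the lines lay far apart in Bmf, at 292 to 379 in OT-1 and 1927 to 3963 in TG6.

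Of 20 apoptosome genes, caspases and their inhibitors, OT-1 against TG6 called 4, 1 and 3 at the 3 stages, where 27.8%, 15.5% and 9.74% of all genes were called. From early to late, 5 fell in TG6, 8 in F5 and 6 in OT-1, where 2 rose, against 25.4%, 26.7% and 26.7% of all genes called in either direction. Apaf1, the scaffold of the apoptosome, was higher in mature OT-1 than TG6 cells, at 1331 against 889 (0.62, adjusted p = 0.013). The inhibitor Birc3 was lower there, at 666 against 1223 (-0.86, adjusted p = 0.0074).

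Of 13 genes of the death receptor arm, OT-1 against TG6 called 7 at the early stage (4 higher, 3 lower), 6 at the late stage (2 higher, 4 lower) and 3 in mature cells (1 higher, 2 lower), against the same shares of all genes of 27.8%, 15.5% and 9.74%. Among receptors, Tnfrsf1b was higher in OT-1 early cells (1.26, adjusted p = 0.016, limma) and Tnfrsf21 in OT-1 mature cells (1.55, adjusted p = 0.018, limma), while Fas and Tnfrsf1a were lower in OT-1 at each stage. Fas gave -1.06 (adjusted p = 2.75e-07), -0.83 (adjusted p = 5.18e-05) and -0.56 (adjusted p = 0.0019), and Tnfrsf1a gave -1.21 (adjusted p = 1.11e-06), -1.16 (adjusted p = 1.56e-05) and -0.80 (adjusted p = 5.93e-04), all by limma.

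Of 19 upstream regulators, 18 passed the filter, and OT-1 against TG6 called 10, 5 and 3 at the 3 stages, against 27.8%, 15.5% and 9.74% of all genes. Il7r, whose signals sustain Bcl2 in T cells, was 144 ± 49.2 (SD, n = 3) in OT-1 early and 11.5 ± 1.37 (n = 3) in TG6 early libraries (3.48, adjusted p = 3.94e-06, limma). From early to late it rose by 5.87 in TG6 (adjusted p = 1.22e-08), 2.25 in F5 (adjusted p = 5.26e-04) and 2.82 in OT-1 (adjusted p = 6.72e-05). On the log2 scale its rise was smaller in OT-1 than in TG6 by an interaction of -3.05 (adjusted p = 0.016). The TG6 rise started near the filter value of 10. In counts, the means went from 11.5 to 723 in TG6 and from 144 to 979 in OT-1. In late cells F5 had the least Il7r, at 119 against 723 in TG6 and 979 in OT-1. OT-1 against TG6 was 0.44 there and was not called (adjusted p = 0.60), and the part of Il7r in the Bcl2 levels was not tested. Nr4a1, an early target of TCR signals, was higher in late OT-1 than TG6 cells, at 9305 against 1646 (2.38, SE 0.77, adjusted p = 0.040).

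The genes with a pattern most like a member's were ranked by Pearson's r over the 9 group means of log2(value + 1) among 9906 genes, as a description across groups that share their libraries. For Bcl2 these were B3galt6 (0.98), Rras2 (0.97) and Hsh2d (0.96), and for Bcl2l1 they were A430106G13Rik (0.99), Ostm1 (0.99) and Celf2 (0.98). For Bcl2l11 the closest were Emilin1, Dnajb12 and Hdac5 (0.95 to 0.96), and for Bbc3 Ramp3, Dusp10 and Csrnp1 (0.96 to 0.98). Bid was closest to Fuca2, Espl1 and Pask (0.98 to 0.99), of which Espl1 encodes separase of dividing cells. With 9 points and so many genes, values of this size arise for many pairs.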

How the data were processed

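RNA was sequenced from thymocytes sorted by FACS, and 26 libraries are held in 1 table of normalized counts for 46517 gene symbols. Per the labels and the methods of the study, the authors used Trimmomatic (0.32) for trimming, Bowtie2 (2.3.2) for alignment against mm10, RSEM (1.2.31) for expected counts and DESeq2 median ratios for normalization. The deposited signal values are these normalized counts. They are not whole reads, since 30.8 to 45.7% of the values above 0 were whole at the step of their library (tolerance 0.02), so tests on counts were not run. Estimated counts of RSEM can divide reads between genes of similar sequence, and library totals of 16134786 to 18944173 after scaling do not give the depth. The library strand was not given in the sources used here. The authors' normalization assumes that most genes do not differ.

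Groups were taken from the labels. Values were analysed as log2(value + 1) for 16372 symbols with at least 10 in at least 2 libraries. A model of 9 group means was fitted with limma (3.58.1, under R 4.3.3), leaving 17 residual degrees of freedom, with a variance trend. Benjamini-Hochberg adjustment was made separately for 17 comparisons (9 between lines, 6 between stages, 2 interactions of OT-1 against TG6) with calls under 0.05. An adjusted p printed without a tool name is from limma.

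Libraries of a line with the same replicate number were read as 1 mouse for the block, since the design states 3 mice a line and 3 sorted populations. The labels do not say that a number marks 1 mouse, and the titles of the 2 TG6 late libraries are spelled differently from their columns. Their deviations from the group means correlated at 0.11 to 0.34 in 9 F5 pairs, 0.019 to 0.18 in 9 OT-1 pairs and 0.023 to 0.27 in 7 TG6 pairs, and exceeded 0.1 in 9, 5 and 2 of these. The main design had no block. The block was fitted with a term for each mouse (11 residual degrees of freedom) for stages and interactions, and with a shared correlation of 0.28 for lines.

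The alternatives were pseudocounts of 0.1 and 5, no filter, scaling by totals, quantile normalization, only the groups compared, no variance trend, the block and each library left out. Leaving out 3 libraries of high cell division signal was added after seeing the data. The members and lists were chosen with earlier results of these data known. All 10 members were tested in every comparison, and values that were not called are given in part. Of the other lists, the 2 genes per direction with the largest change could be named if called, not overlapping and with a higher mean of at least 100. Fas and Tnfrsf1a of the death receptor arm and the interaction of Il7r were followed further after their values were seen. For each member the 3 genes of highest correlation were named. Per kb values used the union of exons in GENCODE vM21 (GRCm38). Promoter windows are from RefSeq (GRCm38.p6), which had an entry for 9 of the 10 members. Some genes of the other lists and 1 motif are not reported here.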

Additional observations from a re-analysis of the deposited data

Results flagged for a closer look

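The rise of Bcl2 from early to late positive selection differed between OT-1 and TG6 by -1.50 on the log2 scale (adjusted p = 0.0028, limma interaction), with a rise in each of the 3 OT-1 and 2 TG6 pairs of the same number. Bcl2l11 from early to late rose in each F5 pair and fell in each TG6 pair of the same number, and the mean changes differed by 1.34. That difference between F5 and TG6 was not tested. Bad from late to mature differed in sign: each F5 library pair fell while each pair of TG6 and of OT-1 rose, some by very little. Pair changes ran from -0.22 to -0.0058 in F5, from 0.18 to 0.23 in TG6 and from 0.0081 to 0.41 in OT-1. The mean change in F5 was -0.32 against that of TG6, with OT-1 at 0.30 against F5. These differences in Bad were not tested either, and Bad was called from late to mature in no line.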

How the results depend on the processing

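Of 170 pairs of a member and a comparison, 50 were called. No called direction reversed under any alternative. In all, 24 calls held in every alternative listed under the processing, the added one aside, and with each library left out, among them Bcl2 and Bcl2l1 of OT-1 against TG6 at the early stage, Bcl2l1, Bcl2l11 and Bbc3 at the late stage, and the early to late changes of Bcl2l1 in each line. The replicate block kept all 50 calls and added 15.

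Counts of members called moved as follows. With only the groups compared, OT-1 against TG6 gave 4 early and 0 mature, OT-1 against F5 mature 0, F5 against TG6 1 late and 0 mature, late to mature 0 in TG6 and 1 in F5, and the interactions 3 and 1. With the replicate block, OT-1 against F5 mature gave 2, late to mature TG6 6, and the interactions 3 and 2, while all gene calls moved from 3821 to 3838 and from 3655 to 4009 for the first pair. Without the 3 libraries of high cell division signal, OT-1 against TG6 gave 4 early and 4 mature, F5 against TG6 early 2, OT-1 against F5 mature 2, late to mature 4 in TG6 and 2 in F5, and the interactions 3 and 1. Quantile normalization gave 2 for OT-1 against F5 mature and 2 for late to mature F5. No filter gave 1 for F5 against TG6 mature and 2 for late to mature F5. A pseudocount of 0.1 or no trend gave 1 for F5 against TG6 mature.

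With each library left out, the lowest and highest counts were 2 and 3 for OT-1 against TG6 early, 1 and 4 for OT-1 against F5 early, 1 and 1 for F5 against TG6 early, 3 and 4 for OT-1 against TG6 late, 3 and 6 for OT-1 against F5 late, 2 and 2 for F5 against TG6 late, 1 and 3 for OT-1 against TG6 mature, 1 and 2 for OT-1 against F5 mature, 1 and 2 for F5 against TG6 mature, 3 and 4 for early to late TG6, 2 and 4 for late to mature TG6, 3 and 6 for early to late F5, 1 and 3 for late to mature F5, 2 and 5 for early to late OT-1, 3 and 4 for late to mature OT-1, 1 and 1 for early to late OT-1 against TG6 and 0 and 0 for late to mature OT-1 against TG6. The causes were not tested.

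Scaling by totals moved the median of all genes by over 0.1 on the log2 scale in OT-1 against TG6 early (-0.11) and late (-0.13), OT-1 against F5 mature (-0.13) and late to mature TG6 (-0.11). Scaling by totals moved the genes called higher and lower from 2520 and 2035 to 1938 and 2805 for OT-1 against TG6 early, 1529 and 1016 to 1090 and 1710 for OT-1 against TG6 late, 764 and 831 to 512 and 1168 for OT-1 against TG6 mature, 1278 and 799 to 1009 and 1301 for OT-1 against F5 early, 2230 and 1697 to 1886 and 2209 for OT-1 against F5 late, 2174 and 1647 to 1365 and 2600 for OT-1 against F5 mature and 2379 and 1276 to 1919 and 1938 for late to mature TG6. Quantile normalization gave 1625 and 2005 for OT-1 against F5 mature, 1905 and 1951 for late to mature TG6 and 1879 and 2188 for late to mature OT-1 (from 2300 and 1697). All gene calls of OT-1 against TG6 mature were 1595, with 270 when only the 2 groups were compared, 734 to 4446 with each library left out and 4766 without the 3 libraries of high cell division signal. With only the groups compared, all gene calls fell from 814 to 259 for F5 against TG6 late, 1087 to 346 for F5 against TG6 mature, 3821 to 2519 for OT-1 against F5 mature, 3655 to 631 for late to mature TG6 and 3361 to 1246 for late to mature F5, and rose from 1058 to 1663 for F5 against TG6 early and from 334 to 734 for the early to late interaction. The block raised the calls of the interactions from 334 to 732 and from 192 to 542. Without the 3 libraries they were 798 and 831, and 2094 for F5 against TG6 early. With 2 or 3 libraries a group, changes within the spread of the low genes Pmaip1 and Bbc3 were not detectable.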
